A study of Homo sapiens with 12 samples.

Results

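The cytosolic ribosomal protein genes were taken as every row whose gene name is RPL or RPS followed by a number, with or without a final A or X, together with RPLP0, RPLP1, RPLP2 and RPSA. This gave 77 of the 22963 gene names in the expression table, 46 for the large (60S) subunit and 31 for the small (40S) subunit. The rule uses names alone and no measured value. All 77 passed the filter on low values in each comparison, which asked for a mean FPKM of at least 1 over the 6 libraries compared. FPKM, the unit of the table, is a count of fragments scaled by transcript length and by the size of the library.

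RNA was sequenced from 12 libraries of 2 human hepatocellular carcinoma cell lines, in 4 groups of 3 biological replicates, to ask what the transcription factor EGR1 changes in these cells. PLC/PRF5 cells, wild type by label, were either the control (vector) or carried EGR1 overexpression. MHCC97H cells were either parental, wild type by label, or labelled EGR1 knockout. The study made its knockouts by CRISPR/Cas9 as single clones, and the labels do not say which clone was sequenced, so a difference between clones and an effect of EGR1 cannot be told apart here.

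Each cytosolic ribosome carries 1 copy of most ribosomal proteins, assembled on ribosomal RNA in the nucleolus and cytoplasm, and the proteins of both subunits are needed in matched amounts. Their mRNAs are among the most abundant of a growing cell. Most of them begin with a 5′ terminal oligopyrimidine (TOP) motif, a C at the first transcribed base followed by a run of C and T, through which mTOR and the RNA-binding protein LARP1 control their translation and stability together.

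The RefSeq promoter table (GRCh38.p14) gave the start of 62 members. A start was counted as TOP-like when its first transcribed base was C and was followed by at least 4 further C or T. By this rule 46 of the 62 members, or 74.2%, had at least 1 such start, against 5.14% of the 27305 genes in the table. The windows printed here run from 15 bases before the first transcribed base to the 15th transcribed base, on the strand of the gene, with the TOP-like run in capitals as far as the window reaches. They were chosen because they set members that fell in the libraries labelled EGR1 knockout (the first 4) beside members that rose there (the next 4), RPL28, the largest fall under EGR1 overexpression, and RPS28, which fell in both comparisons and has no such run. Both sets of 4 carry a TOP-like run throughout, so they do not stand for all members that moved. Without such a start, RPS29, RPL4 and RPL17 also fell there, and RPL3, RPL10A, RPL15, RPL19 and RPS15 rose.
RPS27 (chr1:153990747-153990776, plus strand): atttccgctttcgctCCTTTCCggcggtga
RPS21 (chr20:62387088-62387117, plus strand): ggtgactagctgcttCCTTTCTCTCTCgcg
RPL39 (chrX:119791616-119791645, minus strand): ttcttccgccagcttCCCTCCTCTTCCTTT
RPL31 (chr2:101002274-101002303, plus strand): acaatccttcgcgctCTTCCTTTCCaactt
RPS14 (chr5:150449725-150449754, minus strand): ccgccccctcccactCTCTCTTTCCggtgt
RPL27A (chr11:8682777-8682806, plus strand): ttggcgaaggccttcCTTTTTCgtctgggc
RPL13A (chr19:49487593-49487622, plus strand): cgacaaaacctcctcCTTTTCCaagcggct
RPL35 (chr9:124861943-124861972, minus strand): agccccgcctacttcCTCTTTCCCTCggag
RPL28 (chr19:55385917-55385946, plus strand): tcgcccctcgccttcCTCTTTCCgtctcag
RPS28 (chr19:8321481-8321510, plus strand): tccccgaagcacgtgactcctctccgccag

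Members that moved in opposite directions carried the same kind of start. Among members with an entry, a TOP-like start was found for 14 of the 18 that fell and for 13 of the 18 that rose in the libraries labelled knockout. The full promoter windows, 250 bases before to 50 after each start, were also searched on both strands for 2 forms of the EGR1 motif. GCGTGGGCG was present for 1 of the 62 members, or 1.61%, against 0.96% of all genes, and GCGGGGGCG for 2 members, or 3.23%, against 6.14% of all genes. The members were RPL3, RPS24 and RPS29, and the match of letters is a description only.

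The 77 genes are spread over 21 chromosomes, with 12 of them on chromosome 19. Their coding sequences, taken from GENCODE release 29, run from 75 bases in RPL41 to 1281 in RPL4. Their transcripts had a median GC content of 49.0%, beside 49.1% over all genes tested in MHCC97H.

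The sums of FPKM ranged from 376335 to 437652 over the 12 libraries, and the number of reads behind them is unknown, so counting error cannot be given. EGR1 mRNA checked the labels first. In PLC/PRF5 it was 1.97, 1.43 and 2.03 FPKM with the vector and 56.3, 50.2 and 52.2 FPKM with EGR1 overexpression. In MHCC97H it was 20.2, 23.1 and 21.2 FPKM in the parental libraries and 35.2, 50.3 and 32.9 FPKM in the libraries labelled EGR1 knockout, a rise of 0.83 on the log2 scale (limma, adjusted p = 0.00126). The mRNA level is therefore not lower under that label. The study checked its knockout clones by western blot and by sequencing DNA, neither of which an mRNA level measures. An edit that leaves the mRNA in place cannot be seen in such a table, so the group is called by its label throughout. Of 14 hepatocyte and hepatoma markers, 13 had a mean of at least 1 FPKM in both PLC/PRF5 groups. In parental MHCC97H 8 did, and ALB, AFP, APOA1, TTR, SERPINA1 and GPC3 were under 1 FPKM. Markers also moved between the groups compared. In MHCC97H, summed hepatocyte markers were 1500 to 1880 FPKM in parental and 2290 to 2720 FPKM in the libraries labelled knockout, with 6 of the 8 tested called higher. Summed fibroblast markers went from 7.52 to 10.9 FPKM down to 1.05 to 1.54 FPKM, summed immune markers from 26.9 to 30.6 FPKM up to 52.7 to 58.0 FPKM, and summed endothelial markers from 5.5 to 5.73 FPKM up to 7.2 to 8.51 FPKM. LUM was the only fibroblast marker with a mean of at least 1 FPKM in either MHCC97H group. CD68 made up most of the immune sums, with means of 28.5 FPKM in parental and 53.8 FPKM in the libraries labelled knockout. In PLC/PRF5, summed hepatocyte markers were 4100 to 4360 FPKM with the vector and 4870 to 6140 FPKM with EGR1, while fibroblast sums stayed under 2 FPKM. PTPRC, CD3E and MS4A1 were under 1 FPKM in each group. Of 4 genes listed for RNA quality and library, ACTB and GAPDH were tested, with a median of 0.52 in the libraries labelled knockout (0.02 with a correction for GC content and length), -0.49 with EGR1 and -0.89 between the lines. The part of these genes in the results that follow was not tested.

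The 77 genes were a large part of each library, and the lines stood apart in it. Their share of summed FPKM was 12.6%, 13.2% and 12.3% in the vector libraries and 10.1%, 12.8% and 12.6% in the EGR1 libraries. It was 7.32%, 7.98% and 8.43% in parental MHCC97H and 7.36%, 7.997% and 8.11% in the libraries labelled knockout. The group means were 12.7% ± 0.425 (SD, n = 3), 11.8% ± 1.5, 7.91% ± 0.559 and 7.82% ± 0.408 in that order. Within each line the treated and control libraries overlapped, while each PLC/PRF5 library lay above each MHCC97H library. An exact permutation test of 3 values against 3 has a smallest p of 0.1, so no test was made of these shares. Before sequencing, the protocol applied DSN, a nuclease that digests re-annealed cDNA and so acts most on abundant sequences. Its part in these levels was not tested.

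The balance between the subunits varied little. The summed FPKM of 60S genes divided by that of 40S genes was 1.23, 1.27 and 1.25 in the vector libraries and 1.28, 1.22 and 1.23 in the EGR1 libraries. It was 1.27, 1.31 and 1.31 in parental MHCC97H and 1.36, 1.32 and 1.33 in the libraries labelled knockout. The last 2 groups did not overlap, with means of 1.30 ± 0.0259 (SD, n = 3) and 1.34 ± 0.0225.

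Over all 12 libraries the highest mean levels were those of RPLP0, the scaffold of the ribosomal stalk, at 1608 FPKM, RPL13A at 1333 FPKM and RPS2 at 1273 FPKM. The lowest were RPL37 at 33.4 FPKM, RPS28 at 70.2 FPKM and RPL14 at 72.7 FPKM. The transcript lengths that the authors divided by are not given in the sources used here. For RPL37 and RPL14 the annotated main transcript is 7686 and 7072 bases long, against a shortest member transcript of 344 bases, so an FPKM over such a length is low for the same number of fragments. RPL37 was also the most uneven member among the vector libraries, at 153, 41.5 and 28.9 FPKM, an SD of 1.25 on the log2 scale beside a median of 0.12 over members.

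The first comparison asked what differs between MHCC97H libraries labelled EGR1 knockout and the parental libraries. The ribosomal protein genes moved in both directions in similar numbers, while their summed share overlapped between the groups. Of the 77 genes, 23 (29.9%) rose and 22 (28.6%) fell, while 32 did not pass the test (limma, Benjamini-Hochberg adjusted p under 0.05). Over all 11577 genes tested, 34.8% rose and 31.5% fell, so the members' shares lay a little under the background in both directions. By the cruder measure of groups that do not overlap, 23 members were higher and 21 lower, against 38.3% and 33.6% of all genes. The median member difference was 0.07 on the log2(FPKM + 1) scale, beside 0.02 over all genes. Both subunits took part, with 15 higher and 14 lower of the 46 genes of the 60S subunit and 8 higher and 8 lower of the 31 genes of the 40S subunit.

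The split between rises and falls depended on scaling. Libraries labelled knockout had larger sums of FPKM (407758 to 437652) than parental ones (376335 to 382430). Scaling to a common total moved the median of all genes from 0.02 to -0.11, and then 15 members were higher and 28 lower, with a median member difference of -0.09. Quantile normalization gave 15 higher and 35 lower, and a correction for transcript GC content and length gave 18 higher and 26 lower. Over all genes, the common total called 3155 higher and 4432 lower of 11577. The correction called 3050 higher and 2005 lower of the 10806 genes with a GC content. With it, members that fell were thus a larger share than among all genes, and members that rose a smaller one. All-gene counts for quantile normalization are not given here.

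The largest rise was that of RPL8, a 60S protein close to the peptidyl transferase centre, at 472, 572 and 633 FPKM in parental and 1360, 1349 and 1478 FPKM in the libraries labelled knockout. Each library labelled knockout lay above each parental library, a difference of 1.33 ± 0.12 (SE) on the log2 scale or 2.51-fold (adjusted p = 5.02e-05). RPS2, a 40S protein at the mRNA entry site, went from 549, 709 and 749 to 1453, 1532 and 1696 FPKM. RPS14, a protein of the 40S platform, went from 118, 190 and 149 to 335, 380 and 324 FPKM. These rises were 1.23 ± 0.13 and 1.20 ± 0.16 on the log2 scale, with adjusted p of 9.6e-05 and 0.000237 by limma.

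RPL27A, a 60S protein, rose from 73.3, 97.8 and 119 to 140, 223 and 235 FPKM, a 2.03-fold difference without overlap (adjusted p = 0.00289 by limma). RPL8, RPS2, RPS14 and RPL27A kept their direction and their call with a common total and with the GC and length correction. After the latter, RPL8 differed by 0.63 and RPS2 by 0.64 on the log2 scale, each more than 1.5 times smaller. That correction takes out whatever follows GC content or length, of any origin. Of the 23 members that rose, 15 stayed called with a common total (RPL10A, RPL12, RPL19, RPL22, RPS3, RPS15 and RPS18 were among those that did not) and 16 with the GC and length correction, and RPS15 was called in the opposite direction under the latter (-0.13, adjusted p = 0.0372).

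The falls were led by RPS27, a zinc-finger protein of the 40S subunit, at 511, 664 and 767 FPKM in parental and 165, 200.5 and 187 FPKM in the libraries labelled knockout. The groups did not overlap, and the difference was -1.79 ± 0.15 on the log2 scale, 0.289 of the parental level (limma, adjusted p = 3.51e-05). RPS21, of the 40S body, fell from 503, 561 and 663 to 205, 285 and 255 FPKM. RPS29, a zinc-finger protein of the 40S head, fell from 76.9, 112 and 126 to 37.7, 57.3 and 52.9 FPKM. RPS21 and RPS29 were at 0.431 and 0.477 of the parental level.

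RPL39, a small protein that lines the exit tunnel of the 60S subunit, fell from 455, 590 and 595 to 236, 321 and 284 FPKM. RPL31, at the rim of the same tunnel, fell from 216, 242 and 244 to 102, 161 and 128 FPKM. RPS15A, a 40S protein, fell from 338, 240 and 210 to 107, 145 and 167 FPKM. All 3 were without overlap, at 0.514, 0.549 and 0.534 of the parental level. These 6 falls, too, kept their call with a common total and after the GC and length correction, where RPS27 differed by -1.58 and RPL39 by -0.50. All 22 falls stayed called with a common total, and 16 of them with the GC and length correction.

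**Figure D1:**
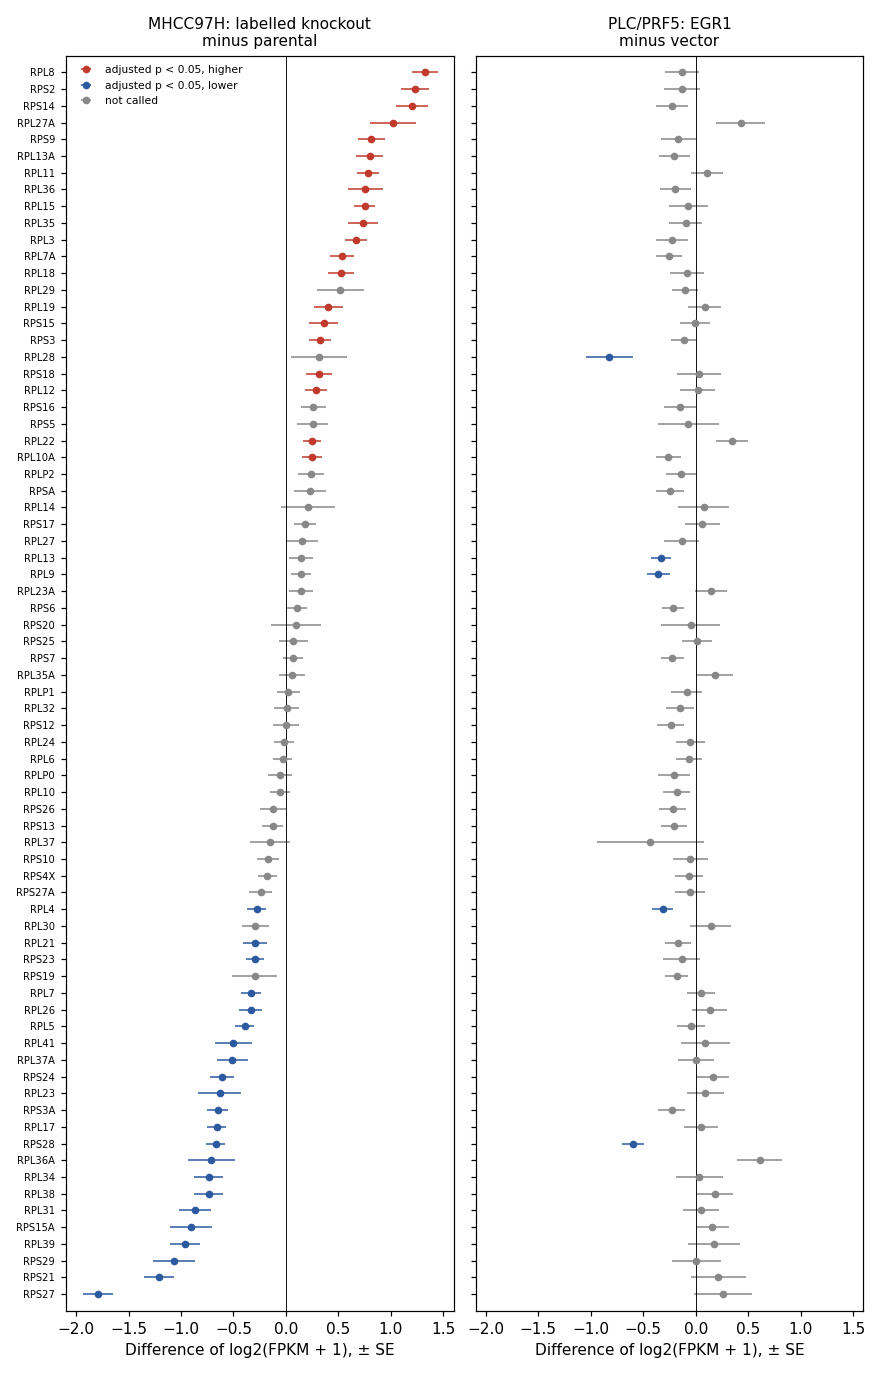
Difference of log2(FPKM + 1) with its SE (bars) for 74 of the 77 genes, ordered by the difference between MHCC97H libraries labelled EGR1 knockout and parental libraries (left), and between PLC/PRF5 EGR1 and vector libraries (right), 3 libraries a group. Of the genes drawn, 20 rose (red) and 22 fell (blue) on the left, from -1.79 for RPS27 to 1.33 for RPL8, and on the right 0 rose and 5 fell.

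The members with the shortest coding sequences fell together. After the values had been seen, the members were put in order of coding length, and the 8 shortest, up to 276 bases, were all called lower: RPL41, RPL39, RPS29, RPS28, RPL38, RPS21, RPS27 and RPL37A. With RPL37, which was not called, they make up the 9 members under 300 coding bases, whose differences ran from -1.79 to -0.15 with a median of -0.74. The 68 longer members had 23 rises and 14 falls, with a median of 0.15. With the GC and length correction, which uses whole-transcript length and not coding length, 7 of the 9 short members were lower and 0 higher. Over all genes that fit called 2005 lower and 3050 higher of 10806. RPL41 encodes the smallest ribosomal protein and was at 367, 482 and 597 FPKM in parental and 278, 355 and 376 FPKM in the libraries labelled knockout, so its groups overlapped. With single libraries left out its adjusted p reached 0.127, and RPL37A lost its call with the GC and length correction. RPS28, of the 40S head, did not overlap, at 62.5, 64.2 and 73.4 against 39.98, 44.0 and 40.5 FPKM. RPL38 fell from 119, 133 and 153 to 65.5, 89.4 and 88.2 FPKM.

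Composition moved with the differences as well. Members that rose had a median transcript GC content of 53.6% (range 42.1% to 64.6%) and members that fell 46.4% (41.9% to 53.8%). Across the 77 members, Spearman's rho between the difference and GC content was 0.52, and with coding length it was 0.42. Across all genes tested, rho was 0.77 with GC content but -0.18 with coding length. These are descriptions over genes measured in the same 6 libraries, not over independent replicates. The part of GC content and of length in the members' differences was not tested beyond the correction given here.

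**Figure D2:**
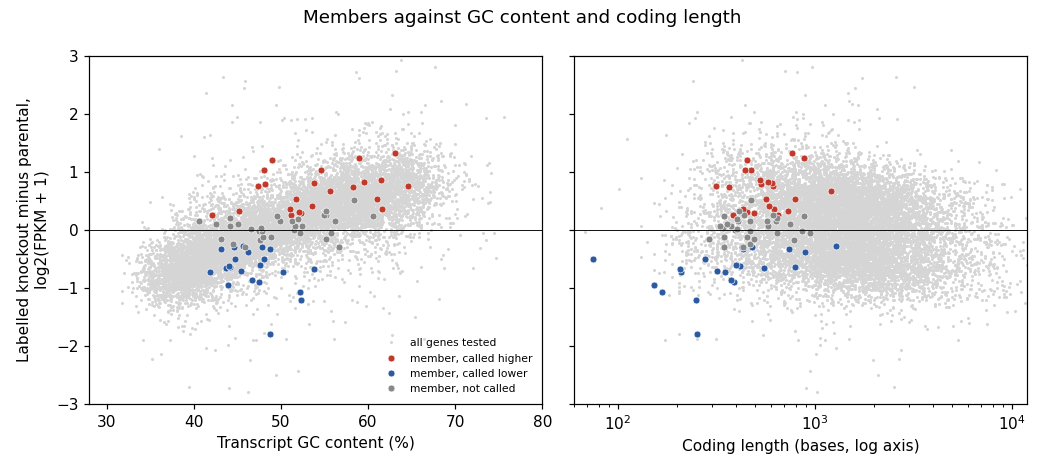
Difference of log2(FPKM + 1) between libraries labelled EGR1 knockout and parental MHCC97H libraries against transcript GC content (left, %) and coding length (right, bases, log axis), for all genes tested (grey) and the members called higher (red), called lower (blue) or not called (dark grey). The 8 members with up to 276 coding bases all lie under 0, while members over 300 bases lie on both sides.

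By position in the ribosome, the exit site of the 60S subunit, where the new chain leaves and chaperones dock, held 5 falls and 3 rises among 9 members. These were 55.6% and 33.3%, against 31.5% falling and 34.8% rising over all genes tested. The falls were RPL17, RPL26, RPL31, RPL38 and RPL39, and the rises RPL19, RPL22 and RPL35. RPL35 rose from 289, 380 and 406 to 514, 650.2 and 618 FPKM. The stalk, which recruits the GTPases of translation, held 1 rise among 4 members (25.0%), RPL12, at 0.29 ± 0.10 on the log2 scale. RPLP0 and RPLP1 differed by -0.05 and 0.02, and RPLP2 by 0.24, with adjusted p of 0.684, 0.857 and 0.12 by limma. The alternatives moved them. With the GC and length correction RPLP0 (-0.53, adjusted p = 0.000124 by limma) and RPLP2 (-0.36) were called lower and RPL12 was not called (0.08), so 0 of the 4 were higher and 2 lower. RPLP1 was lower under quantile normalization (-0.30), and RPLP2 was called higher without parental replicate 3 (0.36) and with the replicate block.

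RPL5 and RPL11, which bind 5S ribosomal RNA and can hold the p53 regulator MDM2, moved apart. RPL11 rose from 124, 124 and 136 to 196, 250.4 and 222 FPKM, a difference of 0.79 ± 0.10 (limma, adjusted p = 0.000267). RPL5 fell from 328, 320 and 325 to 227, 268 and 248 FPKM, a difference of -0.39 ± 0.09 (limma, adjusted p = 0.00427). Neither pair of groups overlapped, and both calls held with a common total, with the GC and length correction and with any 1 library left out.

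Of 14 members in the 40S head, 3 rose (RPS3, RPS15 and RPS18), 2 fell (RPS28 and RPS29) and 9 were not called. The shares were 21.4% higher and 14.3% lower, under the 34.8% and 31.5% of all genes. Of 11 members whose mutation causes Diamond-Blackfan anaemia, an inherited failure of red cell production, RPL11 and RPL15 rose and RPL5, RPL26 and RPS24 fell. That is 18.2% higher and 27.3% lower, also under the shares of all genes. With the GC and length correction, 2 were higher and 6 lower in the 40S head, and 2 and 6 among the anaemia genes. Over all genes that fit called 3050 higher and 2005 lower of 10806, so the falls in both lists were then above the background. RPS6, the substrate of the S6 kinases, was at 149, 162 and 170.4 FPKM in parental and 159, 174 and 186 FPKM in the libraries labelled knockout, which overlap. Its difference of 0.11 was not called, but was 0.36 and called higher with the GC and length correction (limma, adjusted p = 0.0141). RPS27A, made as a fusion to ubiquitin, did not overlap, at 513, 479 and 495 against 364, 449 and 451 FPKM. It missed the threshold (-0.24, adjusted p = 0.0698 by limma) and was called lower with a common total (-0.39).

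Several members have a second gene for a close relative of the protein, which the naming rule leaves out. Of 8 such paralogs, 6 could be tested in MHCC97H, and 3 were called. That is 33.3% higher and 16.7% lower, under the 34.8% and 31.5% of all genes. Each of the 3 moved against the member it resembles, and whether this goes beyond the background was not tested. RPL22L1 fell from 28.2, 35.6 and 27.5 to 15.9, 16.1 and 17.7 FPKM (-0.83 ± 0.11), while RPL22 rose from 73.3, 68.8 and 70.3 to 80.3, 82.4 and 90.3 FPKM (0.25 ± 0.08). RPL39L rose from 16.9, 20.7 and 20.9 to 25.2, 26.4 and 30.1 FPKM (0.46 ± 0.11), while RPL39 fell. RPL36AL rose from 33.3, 33.0 and 33.2 to 44.8, 59.5 and 55.5 FPKM (0.66 ± 0.11), while RPL36A fell from 135, 191 and 211 to 76.0, 140 and 116 FPKM (-0.71 ± 0.22).

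The call for the RPL22 rise was lost with a common total (0.10), and without parental replicate 2, parental replicate 3 or labelled knockout replicate 3, and quantile normalization gave -0.04. RPL36A overlapped between groups, and its adjusted p of 0.0197 became 0.0885 with the GC and length correction, and the call was also lost without parental replicate 2, without parental replicate 3 and without labelled knockout replicate 1 (-0.46). RPL36A and RPL36AL encode nearly the same protein, so reads could be shared between them. RPL26L1, RPS27L and RPL7L1 were not called, with differences of 0.10, -0.37 and -0.02, and the last 2 moved with the setting. RPS27L was called lower without labelled knockout replicate 2 (-0.76) and was at 0.06 with the GC and length correction. RPL7L1 was called lower under quantile normalization (-0.23) and higher with the correction (0.24).

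The second comparison asked what EGR1 overexpression changed in PLC/PRF5. Few members moved, and those that did were lower. Of the 77 genes, 0 were higher, 6 (7.79%) were lower and 71 were not called (limma, adjusted p under 0.05). Over all 11671 genes tested, 19.2% were higher and 10.4% lower. Quantile normalization called 2 members higher and 7 lower, the GC and length correction 1 higher and 8 lower, and a common total 1 higher and 12 lower. Over all genes, the correction called 2744 higher and 1267 lower of 10829, and the common total 1940 and 1329 of 11671. The members' falls were thus under the background with the correction and above it with the common total. Non-overlapping groups were seen for 0 members higher and 15 lower, against 30.4% and 17.3% of all genes. The median member difference was -0.07, beside 0.09 over all genes.

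RPL28, a 60S protein, fell furthest with all 6 libraries, from 276, 522 and 276 FPKM with the vector to 199, 174 and 205 FPKM with EGR1. The groups did not overlap, and the difference was -0.82 ± 0.23 on the log2 scale (limma, adjusted p = 0.0251), with vector replicate 2 well above the other two. Without that library it was -0.52, still called, and RPS28 was then the larger fall. The call was lost with the GC and length correction (-0.75) and without any 1 of the EGR1 libraries (-0.87 to -0.75). RPS28 fell from 103, 111 and 98.3 to 79.0, 63.8 and 62.9 FPKM (-0.60 ± 0.11). RPS28 was also the 1 member of these 6 that was past the threshold with each library left out in turn.

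RPL9 went from 460, 525 and 478 to 348, 402 and 394 FPKM. RPL13 went from 424, 466 and 412 to 330, 340 and 362 FPKM and RPL4 from 710, 695 and 698 to 522, 587 and 585 FPKM. All 3 were lower without overlap, by -0.36, -0.33 and -0.31 on the log2 scale. Their adjusted p lay between 0.0328 and 0.045 (limma), and each lost its call when single libraries were left out. All 3 also lost it with the replicate block and with a filter that admitted any FPKM above 0. RPL13 lost it with the GC and length correction (-0.25) and RPL4 with quantile normalization (-0.21).

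One library, EGR1 replicate 1, was low for most members, though the falls of RPS28 and RPL28 were larger without it (-0.70 and -0.85). In EGR1 replicate 1, 74 of the 77 members were lower than in EGR1 replicates 2 and 3, against 47.2% of all genes tested, and 66 members had their lowest value of the 6 PLC/PRF5 libraries there. The median member was 0.41 under the vector mean on the log2 scale in that library and 0.07 and 0.06 above it in the other two. Without EGR1 replicate 1, 13 members were higher and 5 lower, and the median was 0.07. Over all genes the same fit called 17.7% higher and 9.29% lower, so the members' rises were then 13 of 77 beside that background.

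**Figure D3:**
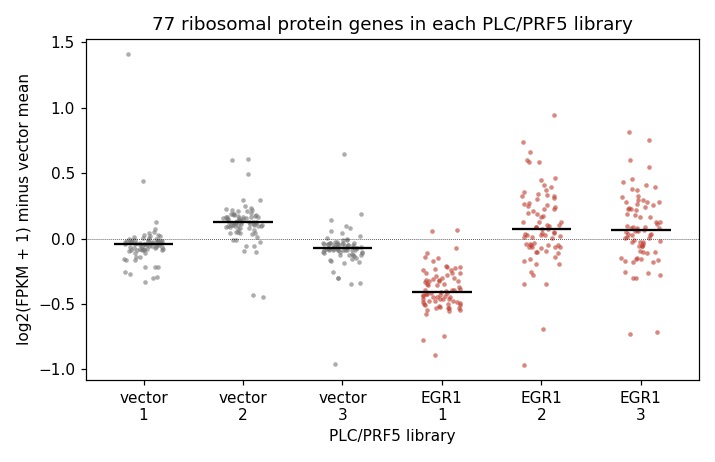
Each point is 1 of the 77 genes in a PLC/PRF5 library, as log2(FPKM + 1) minus the mean of the 3 vector libraries, for vector (grey) and EGR1 (red) replicates 1 to 3, with lines at the medians. The EGR1 replicate 1 points lie lower, around a median of -0.41, while the medians of EGR1 replicates 2 and 3 are 0.07 and 0.06.

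The rises without that library were largest for RPL36A, RPL27A and RPS27. RPL36A was at 182, 221 and 180.5 FPKM with the vector and 203, 374 and 341 FPKM with EGR1, a difference of 0.61 ± 0.21 in all 6 libraries (limma, adjusted p = 0.057) and 0.88 ± 0.10 without EGR1 replicate 1 (limma, adjusted p = 0.00253). On all 6 libraries RPL36A was also called higher with a common total (0.58), quantile normalization (0.65), the GC and length correction (0.49) and the replicate block. RPS27 was at 682, 769 and 637 FPKM with the vector and 493, 1099 and 1055 FPKM with EGR1, with the EGR1 libraries on both sides of the vector range. Its difference was 0.26 (limma, adjusted p = 0.50) and 0.63 without EGR1 replicate 1 (limma, adjusted p = 0.00483). RPL27A was at 129, 153 and 128 FPKM and 118, 228 and 230.3 FPKM, a difference of 0.43 in all 6 libraries (limma, adjusted p = 0.19) and 0.74 without that library. Of these 13 members, 6 fell and 5 rose in the libraries labelled EGR1 knockout. There 28.6% of all members fell and 29.9% rose, beside 31.5% and 34.8% of all genes, and the overlap was not tested. RPS27, RPS21, RPS15A, RPL36A, RPL39 and RPL41 fell, and RPL12, RPL19, RPL22, RPL27A and RPS18 rose.

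RPLP0, RPLP1 and RPLP2 were not called with EGR1, at -0.21, -0.09 and -0.14 on the log2 scale, nor were RPL5 (-0.04), RPL11 (0.11), RPS27A (-0.05) and RPL39 (0.17). RPLP0 was called lower under quantile normalization (-0.41). RPS6 did not overlap, at 590, 668 and 578 against 495, 534 and 546 FPKM. It missed the threshold in the fit of the values as deposited (-0.22, adjusted p = 0.146 by limma) and was called lower with a common total (-0.25) and with the GC and length correction (-0.27). RPL22, a 60S protein with a known part in splicing of its paralog, was at 88.7, 118 and 105 FPKM with the vector and 107, 157 and 134 FPKM with EGR1 (0.35 ± 0.15, adjusted p = 0.118 by limma). It was called higher under quantile normalization (0.43), with the replicate block and without EGR1 replicate 1 (0.49). Of 7 paralogs tested, 0 were called, with RPL22L1 at 0.39, RPL36AL at 0.26, RPL26L1 at 0.24, RPL7L1 at 0.02, RPS27L at 0.41, RPL39L at -0.30 and RPL10L at -0.14. Some were called under other settings. RPL26L1 was higher with quantile normalization (0.30), with the GC and length correction (0.26) and without EGR1 replicate 1 (0.39). RPL22L1 was higher without EGR1 replicate 1 (0.54) and RPL22L1 and RPS27L without vector replicate 2 (0.56 and 0.62), and both with the replicate block. RPL39L was lower under quantile normalization (-0.46).

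The third comparison set the control groups of the lines side by side, parental MHCC97H against vector PLC/PRF5. It shares its libraries with both other comparisons, and cell line, culture and handling cannot be told apart in it. Ribosomal protein mRNAs were broadly lower in MHCC97H: 60 of 77 (77.9%) were called lower and 1 (1.30%) higher, against 40.9% lower and 38.8% higher over all 12046 genes tested. Without overlap, 58 were lower and 1 higher, against 41.7% and 39.2%. The median member difference was -0.82 on the log2 scale, beside -0.02 over all genes. ACTB (-0.37) and GAPDH (-1.41) were lower as well, and their part in this was not tested. Fewer ribosomal protein mRNA molecules and a larger amount of other mRNA give the same FPKM and cannot be told apart.

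The direction was the same for both subunits, with 37 of 46 genes lower for the 60S and 23 of 31 for the 40S. Quantile normalization left 48 lower and 12 higher, and the GC and length correction 47 lower and 17 higher, with medians of -0.48 and -0.44. Over all genes the correction called 4837 lower and 4251 higher of 11214, with a median of -0.06. Members that were lower thus stayed above the background share with the correction.

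RPL36 was the furthest apart, at 439, 544 and 405 FPKM in PLC/PRF5 and 55.2, 73.9 and 92.4 FPKM in MHCC97H, or -2.65 ± 0.18 on the log2 scale (limma, adjusted p = 1.64e-06). RPS14 was at 593, 652 and 575 against 118, 190 and 149 FPKM. RPS6 was at 590, 668 and 578 against 149, 162 and 170.4 FPKM. In none of these did a library of one line reach the range of the other.

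RPL37A was at 211, 233 and 198 FPKM in PLC/PRF5 and 48.9, 53.3 and 58.1 FPKM in MHCC97H (-1.98 ± 0.09), and RPL41 at 1701, 1909 and 1644 against 367, 482 and 597 FPKM (-1.88 ± 0.16). RPL37, uneven among vector libraries, was at 7.003, 8.35 and 9.98 FPKM in MHCC97H (-2.63 ± 0.51). RPL10, the last large protein to join the 60S subunit, was the single gene called higher, from 502, 482 and 492 to 584, 591 and 623 FPKM (0.28 ± 0.07).

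Members near the top of the range were not all lower. RPLP0 was lower, at 1891, 1806 and 1931 against 1404, 1435 and 1616 FPKM (-0.34), though higher with the GC and length correction (0.22). RPLP1 was at 839, 945 and 829 against 882, 887 and 931 FPKM, which overlap (0.05, adjusted p = 0.574 by limma). RPLP1 was called higher with a common total (0.16), quantile normalization (0.46) and the GC and length correction (0.27), and with that correction all 4 stalk members were higher. RPS27 and RPL39, which differed so widely within MHCC97H, were not called between the lines (-0.12 and 0.27, adjusted p of 0.465 and 0.0766 by limma). RPS27 was higher in MHCC97H under quantile normalization (0.33) and the GC and length correction (0.51). RPL39 was called higher with a common total (0.38), medians centred (0.30), quantile normalization (0.62), the GC and length correction (0.64), and without vector replicate 2 (0.35) or parental replicate 1 (0.39). RPL5 (-1.27) and RPL11 (-1.55) were both lower in MHCC97H.

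The paralogs were mixed between the lines. RPL39L was at 7.01, 7.86 and 5.99 FPKM in PLC/PRF5 and 16.9, 20.7 and 20.9 FPKM in MHCC97H (1.37 ± 0.12), and RPS27L was also higher (1.40 ± 0.29). RPL10L was at 4.11, 3.55 and 4.16 FPKM in PLC/PRF5 and listed at 0 in each MHCC97H library. RPL26L1 (-1.81), RPL36AL (-1.72), RPL7L1 (-0.50) and RPL22L1 (-0.39) were lower, and RPL22L1 lost its call with a common total. RPL3L, a muscle gene, stayed under 0.35 FPKM in each library. RACK1, a scaffold on the 40S head, was lower in MHCC97H at -1.72, and FAU, a ribosomal protein made as a fusion, at -0.67. With the GC and length correction FAU was at 0.06. In the libraries labelled knockout RACK1 rose by 0.40 and lost that call with a common total and with the correction (0.0044). FAU was not called there (-0.07) but was lower with the correction (-0.68). With EGR1 overexpression neither was called, at -0.10 and 0.10.

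Genes that build and serve the ribosome were read from lists of their own. Of 60 ribosome biogenesis and nucleolar genes, 25 rose and 0 fell with EGR1 overexpression, led by the box C/D snoRNP protein NOP58 (0.95 ± 0.20). Over the same genes 21 rose and 21 fell in the libraries labelled knockout, from RSL24D1 (-0.95) to NHP2 (0.92), and between the lines 26 were higher and 24 lower in MHCC97H, from NOP10 (-1.39) to LSG1 (1.74). With EGR1 that is 41.7% higher, beside 19.2% of all genes. The shares were 35.0% higher and 35.0% lower in the libraries labelled knockout and 43.3% and 40% between the lines, close to the 34.8% and 31.5% and the 38.8% and 40.9% of all genes. Their median differences were 0.25, -0.06 and 0.11 in that order. The difference between this list and the members was not tested.

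Of 30 genes for RNA polymerases I and III, 8 rose and 1 fell with EGR1, with TAF1D at 0.70 and GTF3A, the 5S rRNA transcription factor, at -0.45. In the libraries labelled knockout 11 rose and 12 fell, from TAF1D (-1.19) to MAF1, the polymerase III repressor, at 1.04. Between the lines 12 were higher and 9 lower in MHCC97H, from POLR1H (-2.18) to TAF1A (1.47). The shares higher and lower were 26.7% and 3.33% with EGR1 (all genes 19.2% and 10.4%), 36.7% and 40% in the libraries labelled knockout (34.8% and 31.5%) and 40% and 30.0% between the lines (38.8% and 40.9%). With the GC and length correction 7 were higher and 5 lower in the libraries labelled knockout, and 16 higher and 1 lower with EGR1. Over all genes that fit called 3050 higher and 2005 lower of 10806 in the former and 2744 and 1267 of 10829 in the latter.

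Of 21 translation factors and regulators whose mRNAs are also of the TOP kind or act on it, 3 rose and 2 fell with EGR1, from EEF1G (-0.46) to LARP4 (0.47), which lost its call with the GC and length correction (0.08). In the libraries labelled knockout 5 rose and 8 fell, from EIF3A (-0.90) to EEF1G (0.89). Between the lines 8 were higher and 10 lower in MHCC97H, from EEF1G (-2.09) to LARP4 (1.6). The shares higher and lower were 14.3% and 9.52% with EGR1, 23.8% and 38.1% in the libraries labelled knockout and 38.1% and 47.6% between the lines, beside the same background. EEF1G, a subunit of elongation factor 1, was thus at an end of its list in each comparison.

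Of 13 genes of ribosome quality control and nucleolar stress, 4 rose and 0 fell with EGR1, led by NEMF (0.85). In the libraries labelled knockout 2 rose and 9 fell, or 15.4% and 69.2% beside 34.8% and 31.5% of all genes, with the ubiquitin ligase LTN1 at -1.13 and ZNF598 at 0.58. With the GC and length correction 1 was higher and 5 lower, against 3050 and 2005 of 10806 over all genes. The list's median then went from -0.59 to -0.30, LTN1 was not called (-0.33) and ZNF598 was at -0.01. Between the lines 9 were higher and 2 lower, or 69.2% and 15.4% beside 38.8% and 40.9%, from HBS1L (-0.61) to ABCE1 (1.6). With the correction 6 were higher and 2 lower, against 4251 and 4837 of 11214 over all genes. Of 12 chaperones and importers of ribosomal proteins, 3 rose and 0 fell with EGR1, led by TNPO1 (1.11). In the libraries labelled knockout 3 rose and 5 fell, from TNPO1 (-1.44) to AAMP (0.97), and between the lines 5 were higher and 3 lower, from IPO5 (-1.48) to TNPO1 (2.09). The chaperones' shares higher and lower were 25.0% and 0% with EGR1, 25.0% and 41.7% in the libraries labelled knockout and 41.7% and 25.0% between the lines. The 14 snoRNA host genes were not analysed here.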

How the data were processed

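RNA was sequenced from oligo(dT)-selected, nuclease-treated libraries of 12 samples. The authors deposited FPKM per gene, made with StringTie on hg38 according to the submitters' processing notes. The aligner, the annotation and the version are not given in the sources used here. FPKM were read as deposited. Low values were not whole multiples of 1 read, so depth and counting error are unknown, and FPKM is relative to each library.

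Values were transformed as log2(FPKM + 1), which understates changes of low genes. Each comparison was fitted on its 6 libraries after a filter that kept genes averaging 1 FPKM or more, with limma 3.58.1 (R 4.3.3) and an intensity trend, and p-values were 2-sided and adjusted by Benjamini-Hochberg over all genes tested. The fits were tested on simulated data. Nothing says whether replicates came from separate cultures, beyond the label biological replicate. Of 19932 names other than assembled loci, 97.6% matched GENCODE release 29 (GRCh38), which gave coding length, transcript length and GC content. The correction removed a spline of 5 degrees of freedom on GC content and log length from each library.

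Groups came from the sample titles. The genes named are, in each comparison, the 6 largest rises and 6 largest falls among called members without overlap, the 3 highest and 3 lowest by mean level, RPLP0, RPLP1, RPLP2, RPL5, RPL11, RPS6, RPS27A, RPL22, RPL39, RPS27 and RPL36A, the paralogs and fused or scaffold proteins, EGR1, and the largest rise and fall of each other list. Members named for position, disease, length or a lost call were named after their values were seen. The members and lists were chosen with earlier results of these data known. Alternatives covered the pseudocount, the filter, scaling, the trend, a joint fit, the replicate block, the correction, thresholds and each library left out. Some genes that these rules take are not reported here, by name or in the figure of single differences, but stay in all counts, shares and medians.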

Additional observations from a re-analysis of the deposited data

How the results depend on the processing

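With EGR1 overexpression, 6 members were called, 0 higher and 6 lower. The counts were 1 (1 lower) with any FPKM above 0 admitted, 13 (1 higher, 12 lower) with a common total, 12 (1 and 11) with a common total of all other genes, 10 (10 lower) with medians centred, 9 (2 and 7) with quantile normalization, 9 (1 and 8) with the GC and length correction, 1 (1 lower) at an adjusted p under 0.01 and 2 (2 lower) at 1.5-fold or more. With single libraries left out they ran from 1 to 18, with 0 to 13 higher and 1 to 5 lower, the 18 without EGR1 replicate 1. In the libraries labelled knockout, 45 members were called, 23 higher and 22 lower. The counts were 15 higher with a common total of all genes or of all other genes, 15 higher and 35 lower with quantile normalization, 28 (15 and 13) at 0.01 and 27 (13 and 14) at 1.5-fold. The median of 0.07 became -0.0857 and -0.087 with the common totals, -0.17 with quantile normalization and -0.0681 with the GC and length correction, with or without the block. Between the lines, 1 member was higher, against 6 with a common total, 2 with that of other genes, 2 with medians centred, 12 with quantile normalization, 17 with the correction, 0 at 1.5-fold and 1 to 3 with single libraries left out. The median of -0.82 became -0.71, -0.48 and -0.44 with a common total, quantile normalization and the correction.

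With group means taken out, same-numbered libraries correlated at -0.13, 0.14 and -0.08 in PLC/PRF5 and 0.03, 0.03 and 0.47 in MHCC97H. With so few libraries a group, these values cannot settle whether the replicate numbers pair the libraries. With the replicate block, 2 members were higher and 2 lower with EGR1, and 2 higher with the correction and the block. In MHCC97H the block called 27 higher and 23 lower.

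Among the genes named by the rule in the processing notes, direction turned with quantile normalization for RPLP1 (-0.30) and RPL22 (-0.0377) in MHCC97H and for RPLP2 (0.0513), RPS27A (0.0746) and RPS27 (0.33) between the lines. With the GC and length correction it turned for RPLP2 (-0.36), RPL7L1 (0.24) and ZNF598 (-0.0149) in MHCC97H, with or without the block, and for RPLP0 (0.22), RPLP2 (0.36), RPS27 (0.51), RPL36A (0.27) and FAU (0.0608) between the lines, where no block was fitted. Of the other members, RPS15 (-0.13) in MHCC97H and RPL12 (0.26), RPS10 (0.20) and RPS16 (0.23) between the lines were called in the opposite direction with the correction. The cause was not tested. Of 2057 values of named genes under the alternatives, 1886 stayed on their side, 98 lost and 57 gained a call. The depth is unknown, so no limit of detection can be given.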
